A study of Mus musculus with 2 samples.

Results

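Chemokines are small secreted proteins that draw leukocytes along concentration gradients through receptors on their surface, and 9 genes of this system were followed across the cells of the mouse retina. They are the ligands Ccl2, Ccl7 and Ccl12, the ligands Ccl3, Ccl4 and Ccl5, the ligands Cxcl10 and Cxcl16, and the receptor Ccr2. They were taken by symbol, and all 9 were found among the 31053 genes of both count matrices. Transcripts were counted as UMIs (unique molecular identifiers, 1 per captured RNA molecule) and summed over cell classes defined by marker genes. A level is given in CPM, the gene's UMIs divided by all UMIs of the class and scaled to a total of 1000000.

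The study compared retinas of mice given 20 mg/kg of sodium iodate (NaIO3) by intravenous injection, an oxidant that damages the pigment epithelium and photoreceptors, with retinas of mice given PBS. Tissue was taken on day 7, and retinas of 6 mice per group were pooled into 1 droplet single-cell library each. The labels call both samples CD11b+ microglia, whereas the protocol names CD11b beads only for the NaIO3 pellets, and strain and age are not stated in the labels. With 1 pooled library per group there is no replicate check, no test was made between groups, and every interval covers counting error only.

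The PBS library held 5573 cells after filtering and the NaIO3 library 9261, with a median of 2486 and 2930 UMIs per cell. The label was not borne out in either library: rods, defined by phototransduction genes, were 87.6% of the cells kept from PBS and 51.2% of those kept from NaIO3. Cells with C1qa, C1qb and C1qc at 0.3% of UMIs or more, called C1q cells below, numbered 15 in PBS and 1632 in NaIO3. The 15 PBS cells had 1211 CPM of P2ry12 and 644 CPM of Tmem119, both microglia markers, and 0 UMIs of 7 macrophage markers such as Ms4a7 and Mrc1. The 1632 NaIO3 cells had 48.5 CPM of P2ry12 and 218 CPM of Tmem119, and 893 CPM of the macrophage markers. Of the barcodes, 24 occurred in both libraries, and 23 of them passed the filters in both.

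Monocyte chemoattractants of the Ccl2 type recruit blood monocytes that carry Ccr2, and in the mouse Ccl2, Ccl7 and Ccl12 all act on that receptor. Ccl3, Ccl4 and Ccl5 attract macrophages and T cells, and Ccl3 and Ccl5 act on the receptor Ccr1. Cxcl10, a gene induced by interferon, attracts Cxcr3-bearing lymphocytes, and Cxcl16 is a membrane-bound ligand of Cxcr6 that can be shed. In the retina, microglia are the resident macrophages, and Müller glia are the main support cells.

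Of the 9 genes, 7 lie on chromosome 11 of the mm10 build in the GENCODE M21 annotation. Ccl2 (82035571 to 82037453, plus strand), Ccl7 (82045712 to 82047525, plus) and Ccl12 (82101845 to 82103400, plus) are neighbours, with 8258 bp between the first pair and 54319 bp between the next. Ccl3 (83647844 to 83649355, minus) and Ccl4 (83662584 to 83664683, plus) lie 13228 bp apart, and Ccl5 (83525778 to 83530518, minus) lies 117325 bp before Ccl3. Cxcl16 (70453983 to 70459984, minus) lies 11575586 bp before Ccl2 on the same chromosome. Cxcl10 is on chromosome 5 (92346638 to 92348889, minus) and Ccr2 on chromosome 9 (124101950 to 124113557, plus).

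Promoters of Cxcl10, Ccl3 and Ccl12 are shown because these ligands had different partner genes in single cells. The RefSeq promoter table for GRCm38.p6 held 4 of the 9 genes, and the 250 bases before the RefSeq start are printed for these 3, 5′ to 3′ on the strand of the gene. Both strands were searched for the core of the interferon-stimulated response element (GAAA, any 2 bases, GAAA), the AP-1 site (TGANTCA), the ends of a kappa-B site (GGG, any 5 bases, CC) and the Egr1 site (GCGNGGGCG). Capitals mark every match. The windows are chr5:92348890-92349139 on the minus strand for Cxcl10, chr11:83649379-83649628 on the minus strand for Ccl3 and chr11:82101595-82101844 on the plus strand for Ccl12.
Cxcl10: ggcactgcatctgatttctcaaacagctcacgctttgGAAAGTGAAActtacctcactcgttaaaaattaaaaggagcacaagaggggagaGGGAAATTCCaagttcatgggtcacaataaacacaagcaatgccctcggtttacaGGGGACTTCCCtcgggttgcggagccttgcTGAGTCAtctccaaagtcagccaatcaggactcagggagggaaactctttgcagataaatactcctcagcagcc
Ccl3: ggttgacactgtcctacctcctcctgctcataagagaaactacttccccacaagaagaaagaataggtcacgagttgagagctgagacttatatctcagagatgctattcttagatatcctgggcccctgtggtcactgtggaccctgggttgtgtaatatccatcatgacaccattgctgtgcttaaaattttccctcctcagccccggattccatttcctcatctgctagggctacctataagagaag
Ccl12: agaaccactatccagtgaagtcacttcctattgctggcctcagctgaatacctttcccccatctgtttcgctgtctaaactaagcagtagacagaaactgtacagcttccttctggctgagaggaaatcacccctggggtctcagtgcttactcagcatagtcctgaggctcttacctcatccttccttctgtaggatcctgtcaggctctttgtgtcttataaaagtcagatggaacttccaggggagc

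The Cxcl10 window held 1 match to the response element core, 213 to 204 bases before the start, and 1 AP-1 match at 74 to 68 bases. It also held kappa-B matches at 159 to 150 bases and, as 2 overlapping placements, at 104 to 94 bases. The response element core occurred in 3.04% of the 27025 promoter windows, the AP-1 site in 6.87%, the kappa-B ends in 45.4% and the Egr1 site in 4.65%. The Ccl3 and Ccl12 windows held no match to these letters. A match is a description of the sequence and not evidence of binding.

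In the NaIO3 library the chemokine transcripts were counted mostly in C1q cells. These cells were 17.6% of the kept cells and held 26.4% of all UMIs. They held 88.3% of the Ccl2 UMIs (12410 of 14058), 84.8% of Ccl7, 90.0% of Ccl12, 88.9% of Ccl3 and 88.1% of Ccl4. The share was smaller for Cxcl16 at 72.2%, Ccr2 at 70.9%, Cxcl10 at 63.6% and Ccl5 at 49.9%. With the C1q gate at 0.6% of UMIs the Ccl5 share was 32.1%, and Ccl5 stood at 398 CPM in C1q cells between the 0.3% and 0.6% gates against 152 CPM at 0.6 to under 1.2%. All 9 genes were at least 2 times higher in C1q cells than in all other gated cells together, where 19.5% of all genes were. The ratios fell between 39.5 and 77.4 for Ccl2, Ccl7, Ccl12, Ccl3 and Ccl4, and between 4.05 and 9.63 for the other 4.

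**Figure D1:**
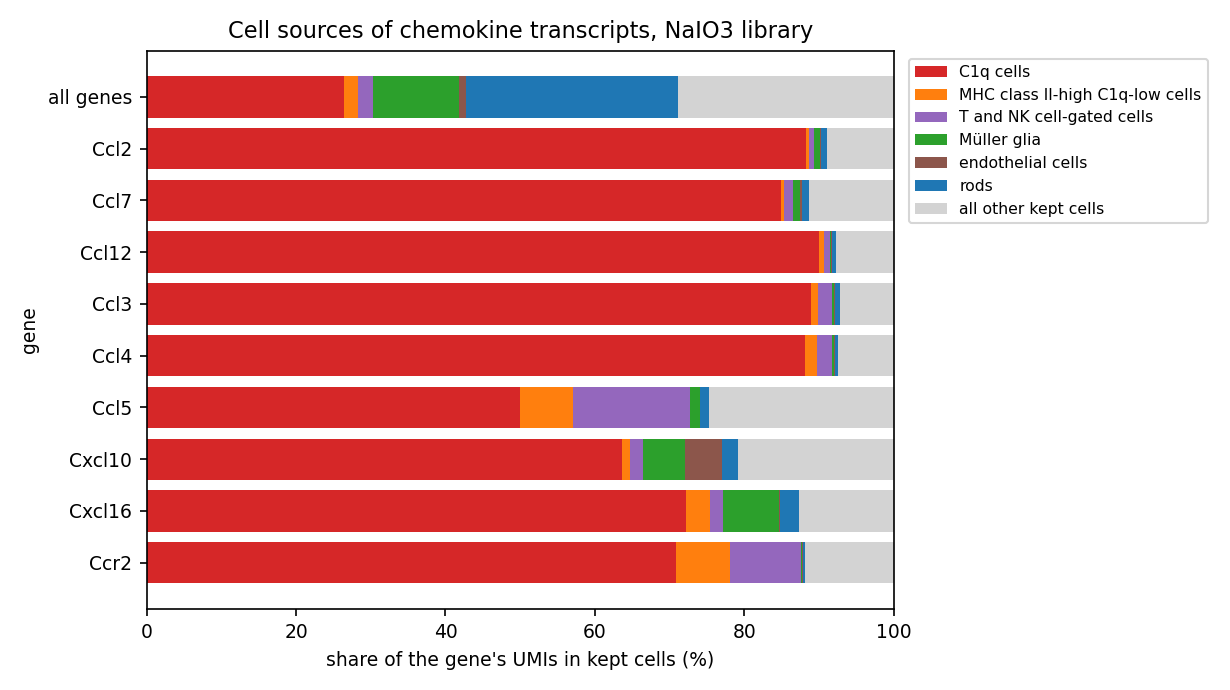
Share of each gene's UMIs (%, horizontal axis) by cell class in the NaIO3 library, with the share of all UMIs in the top bar. C1q cells held 26.4% of all UMIs but between 49.9% (Ccl5) and 90.0% (Ccl12) of the UMIs of each chemokine gene.

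The PBS library held few chemokine UMIs in all. Ccl7, Cxcl10 and Ccr2 had 0 UMIs in its kept cells, Ccl2 had 1, Ccl4 3, Ccl12 4, Ccl5 5, Ccl3 15 and Cxcl16 91. The NaIO3 library had between 3028 UMIs (Ccr2) and 14058 (Ccl2) of each. The protocol names CD11b beads only for NaIO3, so treatment and bead selection cannot be told apart in these totals. The number of C1q cells differs between the libraries along with these totals, so levels within C1q cells are compared next. Treatment and bead selection cannot be told apart within this class either, and its marker genes differed too. Summed microglia markers reached 10797 CPM over PBS C1q cells but 1726 CPM over those of NaIO3. Macrophage markers had 0 UMIs over the former and 893 CPM over the latter. The part of bead selection and of class make-up in the C1q ratios was not tested.

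Within C1q cells, 7 of the 9 genes had a NaIO3 level of 2 times the PBS level or more and 0 of 9 had 0.5 times or less. The background over the 7309 genes that reached 20 CPM on one side was 11.8% for the first and 29.1% for the second. The median log2 ratio was 2.35 for the 9 genes and -0.34 for the 6496 of these genes with a usable ratio. The 15 PBS cells held 51217 UMIs, so that 1 UMI there is 19.5 CPM, and 0 UMIs allows up to 58.6 CPM (3 UMIs). A gene with 2 PBS UMIs thus passed the 20 CPM minimum, and the part of such small counts in the background was not tested. Ccl7, Cxcl10 and Ccr2 passed it through NaIO3 only. With 0 set at 3 UMIs they could not have come out lower. With each cell given the same weight, as the mean of CPM per cell, 4 of the 9 genes were 2 times higher, against 20.8% of all genes. The calls of Ccl5, Ccl7 and Cxcl10 were lost, with log2 ratios of 0.70, 0.54 and 0.57 in place of 2.35, 1.21 and 1.31.

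Depth differed between the C1q cells compared. The deepest of the 15 PBS cells held 9924 UMIs, whereas NaIO3 C1q cells under 10000 UMIs held 2446970 of the 19545071 NaIO3 UMIs. Among cells under 10000 UMIs, an alternative chosen after seeing the data, 1097 NaIO3 cells remained, and 5 of the 9 genes were at least 2 times higher (background 10.4%). Ccl2 was then at 275 CPM (ratio 14.1, 2.52 to 557) and Ccl4 at 269 CPM (6.90, 1.9 to 57.1), less than 0.5 times their ratios over all cells. Ccl7 at 71.5 CPM and Cxcl10 at 71.9 CPM were no longer called, and Ccl3 at 154 CPM was below its PBS level (0.564, 0.332 to 1.04). Ccl12 (596 CPM), Cxcl16 (614 CPM) and Ccl5 (258 CPM) kept their calls. The levels that follow are over all C1q cells.

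The 3 ligands of Ccr2 had low or no counts in PBS C1q cells. Ccl2, the main monocyte attractant, was counted at 19.5 CPM in PBS (1 UMI) against 635 CPM after NaIO3 (12410 UMIs), a ratio of 32.5 (95% interval 5.84 to 1285). Ccl12, the mouse monocyte attractant also called MCP-5, stood at 78.1 CPM (4 UMIs in 3 cells) and 622 CPM, a ratio of 7.96 (3.11 to 29.2). Ccl7, a further attractant of monocytes, had 0 UMIs in PBS against 135 CPM after NaIO3, at least 2.31-fold higher with 0 set at 3 UMIs, while the exact interval of the ratio starts at 1.88. The NaIO3 levels of Ccl2 and Ccl12 lay above the upper bounds of the PBS intervals, 109 and 200 CPM.

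Ccl3 and Ccl4 differed in this comparison. Ccl3, a ligand of Ccr1, was counted at 273 CPM in PBS against 324 CPM after NaIO3, a ratio of 1.19 whose interval of 0.706 to 2.17 includes no difference. Its 14 PBS UMIs lay in 3 of 15 cells, with 8, 5 and 1 UMIs. Ccl4, a macrophage inflammatory protein, stood at 39.0 CPM (2 UMIs in 1 cell) and 624 CPM, a ratio of 16.0 (4.42 to 132). Immediate early and dissociation genes, 16 genes that include Fos, Jun and Egr1, stood at 9567 CPM in PBS C1q cells and 8295 CPM in NaIO3 C1q cells, and their part in these levels was not tested.

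The remaining genes rested on 0 to 2 UMIs in PBS. Ccl5, which attracts T cells, stood at 39.0 CPM (2 UMIs) and 198 CPM, a ratio of 5.08 (1.41 to 42.0). Cxcl16 stood at 39.0 CPM (2 UMIs in 1 cell) and 519 CPM, a ratio of 13.3 (3.68 to 110). Cxcl10 had 0 UMIs against 145 CPM, at least 2.48-fold higher by the 3-UMI limit and from 2.01 by the exact interval. Ccr2 had 0 UMIs against 110 CPM, at least 1.88-fold higher by that limit and from 1.52 by the exact interval. The bounds for Ccl7, Cxcl10 and Ccr2 follow from the small PBS count and do not measure the size of the difference.

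**Figure D2:**
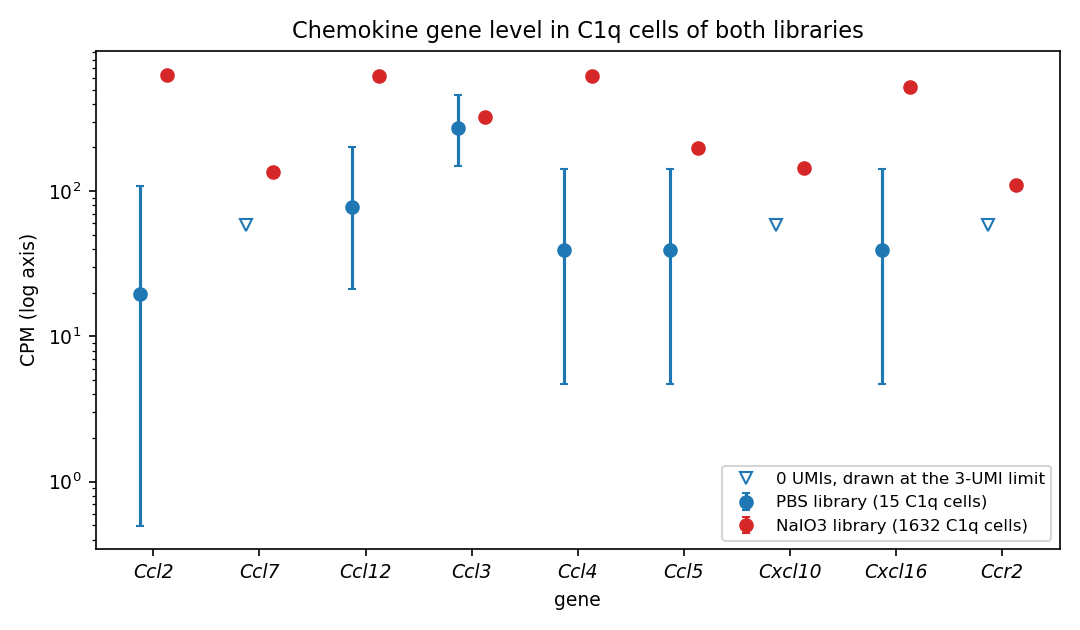
Level of each gene in C1q cells (CPM, log axis) in the PBS library (15 cells, blue) and the NaIO3 library (1632 cells, red), with exact 95% Poisson intervals of the summed UMIs. Open triangles mark 0 UMIs drawn at the 3-UMI limit of 58.6 CPM, and Ccl3 is the gene whose PBS interval includes the NaIO3 level.

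Across the 8 classes with at least 50 NaIO3 cells, the highest level was in C1q cells for 6 genes and elsewhere for Ccl5, Ccr2 and Cxcl10. The share of all genes with their highest level in C1q cells was not counted, so this count has no background. Set against all other gated cells, Ccl5 and Ccr2 were at least 2 times higher in the T and NK class (2 of 9 genes, background 12.7%) and in the MHC class II-high C1q-low class (2 of 9, background 9.86%). Cxcl10 was so in endothelial cells (1 of 9, background 16.2%). In Müller glia, cones, bipolar cells and rods 0 of 9 were, with backgrounds of 11.4%, 5.95%, 16.3% and 19.2%. Levels in rods were between 0.333 CPM (Ccr2) and 16.6 CPM (Cxcl16). C1q RNA itself was counted in other classes. A class level was therefore also set against the level that a carry-over of C1q cell RNA in proportion to C1q UMIs would give. Rods had 7.13 times that level for Cxcl16, 6.65 times for Cxcl10, 4.76 times for Ccl5 and 0.676 times for Ccr2. Of the rod UMIs, 41 of 91 for Cxcl10 and 48 of 89 for Ccl5 lay in 1 cell. The source of these rod UMIs was not tested.

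For Ccl2, Ccl7, Ccl12, Ccl3 and Ccl4, levels outside C1q cells were low. Ccl2 stood at 63.0 CPM in T and NK cell-gated cells (58 cells) and 31.0 CPM in MHC class II-high C1q-low cells (118 cells), which is 0.797 and 0.723 times the level at the C1q ratio. Ccl12 stood at 70.8 and 61.4 CPM, 0.915 and 1.46 times that level. Ccl4 stood at 178 CPM in the T and NK class and 159 CPM in the MHC class II class, 2.29 and 3.78 times. In rods Ccl4 was at 2.81 CPM, 1.0 times the level at the C1q ratio. In rods and the lymphocyte class these 5 genes lay between 0.797 and 2.29 times that level. Higher values were found in Müller glia for Ccl2 (7.21) and Ccl7 (8.90), in endothelial cells for Ccl7 (3.97), and in ungated cells for Ccl2 (5.21) and Ccl7 (6.35).

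Ccl5 was highest in lymphocyte-gated cells. It stood at 795 CPM in the T and NK class (1223 UMIs in 29 of 58 cells), 387 CPM in the MHC class II-high C1q-low class and 198 CPM in C1q cells. The T and NK value was 32.1 times and the MHC class II value 28.9 times the level at the C1q ratio. Without the 1 richest cell the T and NK level was 569 CPM and the MHC class II level 240 CPM. At 1000 UMIs per cell, Ccl5 was found in 30.9% of 55 T and NK cells (19.1 to 44.8%), 11.7% of 103 MHC class II-high cells (6.17 to 19.5%) and 0.142% of rods, whose median depths before thinning were 23873, 13128 and 2775 UMIs. The unthinned shares were 29 of 58, 22.0% and 0.654%. The leading genes of the T and NK class were Gzma, Nkg7 and Gzmb, killer cell granule genes that belong to its gate. Xcl1, Klre1 and Il2rb, which are not in the gate, were also among the leading genes. The class also held MHC class II genes at 9001 CPM, against 7891 CPM in C1q cells, and dendritic cell markers at 133 CPM. The part of other cell types in its Ccl5 and Ccr2 levels was not tested.

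Ccl5 also lay outside the gated classes. The 43 cells that passed both the C1q and the T and NK gate, left out as meeting more than 1 gate, held 1059 Ccl5 UMIs. The 1287 ungated cells held 855 Ccl5 UMIs in 39 cells, and 66.3% of them lay in 5 cells. Each of those 5 cells had a UMI of Ccr7, Ccl22 or Fscn1, as did 14.7% of all ungated cells, and their cell type was not tested.

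Ccr2, the receptor of Ccl2, Ccl7 and Ccl12, was spread over the leukocyte classes. It stood at 188 CPM (167 to 211) in the T and NK class, 152 CPM (133 to 174) in the MHC class II-high C1q-low class and 110 CPM (105 to 115) in C1q cells. The first pair overlapped within counting error. Within C1q cells it was 185 CPM (174 to 197) in the 322 cells with MHC class II genes at 1% of UMIs or more and 78.0 CPM in the other 1310. Median depth in these 2 groups was 7687.5 and 2268 UMIs. In rods, Müller glia and bipolar cells Ccr2 was under 0.6 CPM, with 7, 3 and 2 UMIs.

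Cxcl10 outside C1q cells lay in a few cells. Endothelial cells had the highest level at 299 CPM, but its 225 UMIs lay in 3 of 114 cells, 167 of them in 1 cell, and the level was 78.4 CPM without that cell and 0 without the 3. With the gates of the other classes doubled, the endothelial level was 1.40 CPM. The 3 cells also held 3 Ccl3, 4 Ccl4 and 1 Cxcl16 UMIs, and none of the other 5 genes. Interferon response genes took between 0.276% and 5.64% of their UMIs, and a median of 0.433% over the class. The whole endothelial class had the highest level of the interferon list, 5944 CPM against 3249 CPM in C1q cells.

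In Müller glia most Cxcl10 UMIs lay in 1 cell. The level was 29.3 CPM (248 UMIs in 20 of 385 cells) in NaIO3 and 0 UMIs in 37 PBS cells, where 3 UMIs would be 16.4 CPM. One cell held 150 of the 248 UMIs, and without it the level was 11.6 CPM, under that limit. That cell had 16143 UMIs, 0.811% of them Müller gate genes and none of C1q, and it also held 73 of the 114 Müller Ccl2 UMIs and 16 of the 30 Ccl7 UMIs. Without it Ccl2 in Müller glia was 4.85 CPM, near the rod level of 5.47 CPM.

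Cxcl16 was the one ligand with a broad level in Müller glia, found in 75.8% of the NaIO3 cells. It stood at 305 CPM in PBS Müller glia (56 UMIs in 17 of 37 cells) and 126 CPM in NaIO3 (1068 UMIs in 292 of 385 cells), a ratio of 0.413 (0.316 to 0.551). The NaIO3 level was 82.7 times that at the C1q ratio. Of all genes in Müller glia, 15.7% were at least 2 times lower in NaIO3 and 16.7% at least 2 times higher. The log2 ratio of -1.28 was -0.38 with the gates of the other classes at 0.5 times and -0.80 as a mean over cells. At 1000 UMIs per cell, Cxcl16 was found in 3 of 27 Müller cells from PBS (11.1%, 2.35 to 29.2%) and 47 of 349 from NaIO3 (13.5%, 10.1 to 17.5%), and these intervals overlap. In rods the shares were 0.0855% and 0.614%, and median depths before thinning were 6670 and 21364 UMIs in Müller glia and 2491 and 2775 in rods. The unthinned shares were 45.9% and 75.8% of Müller glia.

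The Müller classes differed in more than treatment. Median depth was 3047 UMIs in PBS and 20324 in NaIO3, and the gate genes took 1.76% and 0.816% of UMIs. Among Müller cells under 10000 UMIs, 31 from PBS and 86 from NaIO3, the Cxcl16 ratio was 0.368 (0.220 to 0.615), where 22.2% of all genes were at least 2 times lower. The part of the gate genes in the ratio was not tested. In PBS, Müller glia held 61.5% of the library's Cxcl16 UMIs, and the 15 C1q cells held 2.20%. In rods Cxcl16 went from 0.961 CPM (17 UMIs) to 16.6 CPM (349 UMIs in 145 of 4743 cells), a ratio of 17.3 (10.6 to 30). All 9 genes were under 20 CPM in rods of both libraries, the minimum for a call, so none of them could be called there. Of the 7256 genes that reached it, 10.6% were at least 2 times higher and 2.78% lower. With 0 set at 3 UMIs, the rod ratios of the 9 genes ran from at least 1.96 (Ccr2) to 42.9 (Ccl3, 1 PBS UMI). The part of carried-over RNA in these ratios was not tested.

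**Figure D3:**
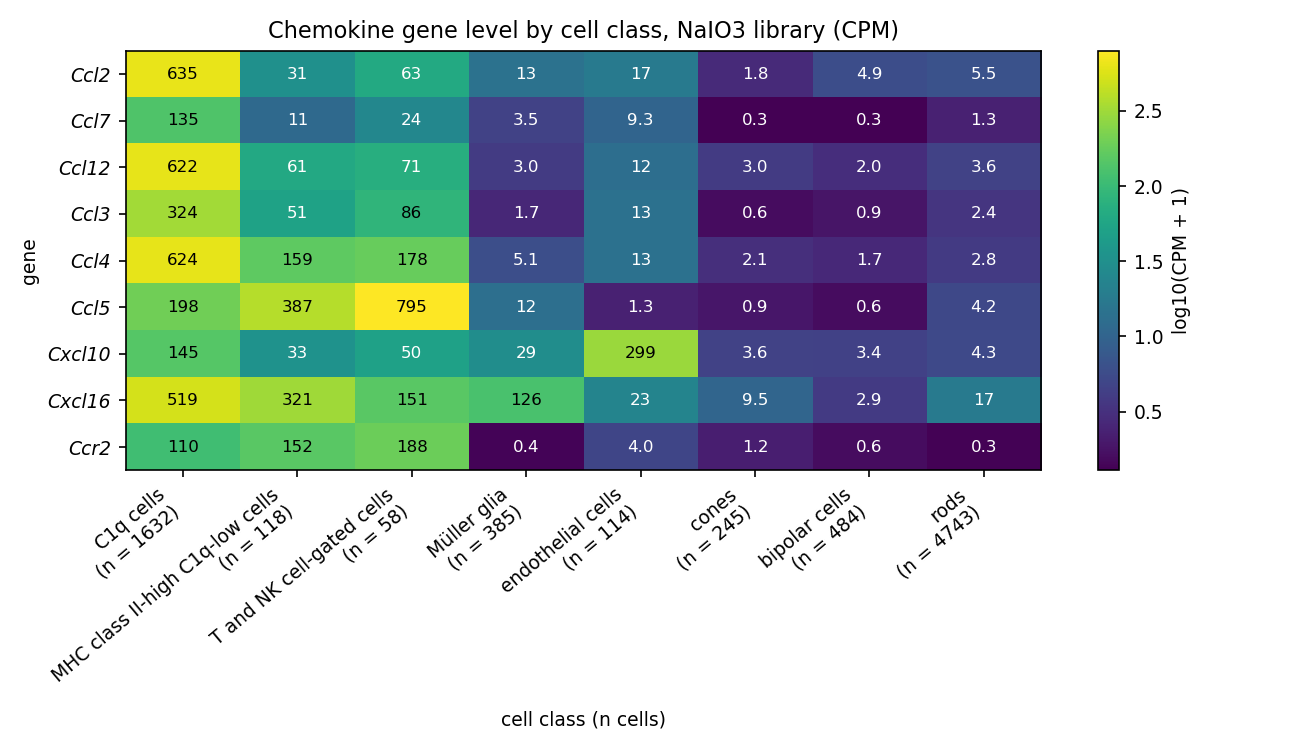
Level of each gene (CPM from the summed UMIs of each class, printed and as colour on a log10 scale) in the 8 classes with at least 50 cells of the NaIO3 library. Ccl2, Ccl7, Ccl12, Ccl3, Ccl4 and Cxcl16 were highest in C1q cells, Ccl5 and Ccr2 in T and NK cell-gated cells, and the endothelial Cxcl10 level of 299 CPM came from 3 cells.

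Within NaIO3 C1q cells the genes were spread very unevenly. Of each gene's UMIs, 50% lay in 10 cells for Ccl5, 11 for Cxcl10, 34 for Ccl7, 58 for Ccr2, 64 for Ccl4, 66 for Ccl12, 72 for Ccl3, 77 for Ccl2 and 158 for Cxcl16, of 1632. The 10 richest Ccl5 cells had a median of 0.277% MHC class II genes against 0.102% over all C1q cells, 0.0360% T and NK genes against 0, and 0.627% C1q genes against 0.991%. Those 10 cells had a median of 45994 UMIs against 2571 over all C1q cells, and a median share of 0 depends on depth. The part of depth and of other cell types in these values was not tested. Without the 10 cells the Ccl5 level was 101 CPM. Without the 11 richest Cxcl10 cells its level was 72.0 CPM. For Cxcl16 the 158 cells held 44.0% of all C1q cell UMIs, a larger share than the 2.20% to 20.2% for the other genes.

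Levels also went with the depth of the cell. Ccl4 stood at 103 CPM in C1q cells under 1500 UMIs, 316 CPM at 1500 to under 10000 UMIs and 675 CPM at 10000 or more. Ccl2 stood at 127, 316 and 686 CPM in the same order, and Ccl3 at 46.8, 184 and 348 CPM. Cxcl16 did not follow this order, with 605, 617 and 505 CPM. The part of cell quality in the first 3 genes was not tested.

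Other features of C1q cells set the ligands apart. Ccl7 was 279 CPM (260 to 299) in the 421 cells with more macrophage than microglia marker UMIs and 111 CPM (106 to 116) in the 948 cells with more microglia marker UMIs. Ccl2 was nearly equal in these groups, with 612 and 646 CPM. Ccl2 was 370 CPM in C1q cells with MHC class II genes at 1% or more and 746 CPM in the others, the reverse of the order for Ccr2. These groups differed in depth. The median was 1995 UMIs with more macrophage markers and 7941.5 with more microglia markers. It was 7687.5 UMIs with MHC class II genes at 1% or more and 2268 in the others. The part of depth in these values was not tested.

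To compare detection at equal depth, 904 C1q cells were thinned to 2000 UMIs each, and 728 shallower cells were left out. At that depth Cxcl16 was found in 64.9% of the cells, Ccl12 in 43.0%, Ccl2 in 38.5%, Ccl4 in 30.5% and Ccl3 in 27.3%. Ccr2 was found in 12.7%, Ccl7 in 11.6%, and Ccl5 and Cxcl10 in 8.41% each. In 3090 rods at the same depth the shares were between 0.0971% (Ccr2) and 1.17% (Cxcl16). Cells are not replicates, and the shares below describe this library.

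Ccl3 and Ccl4 were the pair found together most strongly. Ccl3 was found in 58.7% of the 276 cells with Ccl4 and in 13.5% of the 628 cells without it, 4.34 times as often, with a phi coefficient of 0.47. Of the 36 pairs of the 9 genes, 5 were found together at least 2 times as often in both directions: Ccl2 with Ccl7, Ccl2 with Ccl3, Ccl2 with Ccl4, Ccl3 with Ccl4, and Ccl4 with Cxcl10. In cells with a given member, the share of 9402 genes found at least 2 times as often was counted in this 1 direction only. It is therefore no direct background for pairs that had to meet the ratio in both directions. This share was 6.33% for Ccl2, 6.54% for Ccl7, 3.02% for Ccl12, 6.35% for Ccl3, 6.85% for Ccl4, 7.6% for Ccl5, 8.17% for Cxcl10, 3.65% for Cxcl16 and 5.45% for Ccr2. Ccl3 with Ccl4 was among the pairs in every setting tried, and the number of pairs ranged from 1 to 10.

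The Ccr2 ligands were found together as well. Ccl7 was found in 21.6% of cells with Ccl2 and 5.4% of cells without it (phi 0.25), and in 19.3% of cells with Ccl12 and 5.83% without it (phi 0.21). Ccl12 was found in 58.6% of cells with Ccl2 and 33.3% without it (phi 0.25). The pairs with a phi of 0.2 or more were Ccl3 with Ccl4, Ccl2 with each of Ccl3, Ccl4, Ccl7 and Ccl12, and Ccl7 with Ccl12.

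Cxcl16, Ccl5 and Ccr2 had no such partner. Cxcl16 was found in 64.1% of cells with Ccl2 and 65.5% without it, and its phi with each ligand lay between -0.02 and 0.03. Ccl5 had a phi between -0.01 and 0.05 with the other ligands and 0.06 with Ccr2. Ccr2 was found in 5.26% of cells with Cxcl10 and 13.4% of cells without it, 4 of 76 cells. A phi this near to 0 in sparse counts is no finding in either direction.

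**Figure D4:**
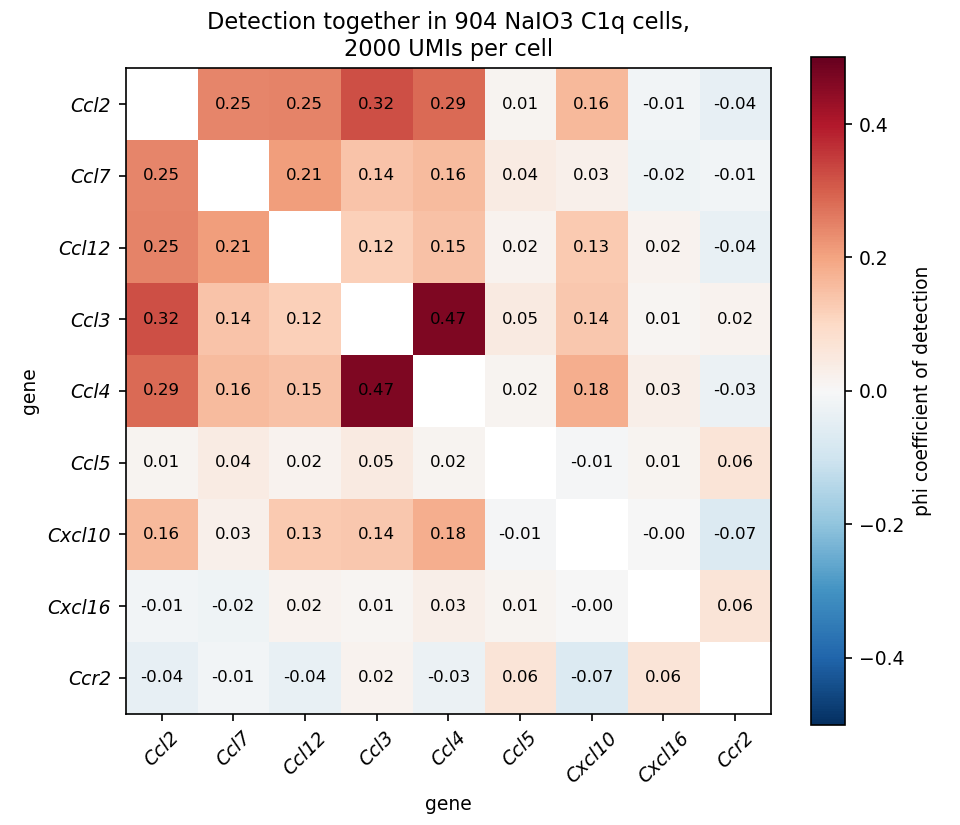
Phi coefficient of detection (colour and printed value) for each pair of the 9 genes over 904 NaIO3 C1q cells thinned to 2000 UMIs. The highest value is 0.47 for Ccl3 with Ccl4, and Cxcl16, Ccl5 and Ccr2 stay between -0.07 and 0.06 with every other gene.

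Depth before thinning differed between cells with and without a gene, and its part in the pairs was not tested. Cells with Ccl4 had a median of 21066 UMIs and cells without it 9000, and for Ccl2 these were 20369 and 8934. Among the 535 C1q cells that held 10000 UMIs or more, an alternative chosen after seeing the data, phi was 0.42 for Ccl3 with Ccl4, 0.23 for Ccl2 with Ccl7, 0.21 for Ccl2 with Ccl3 and 0.14 for Ccl2 with Ccl4. In those cells Ccl5 with Cxcl10 had a phi of 0.15.

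Genes outside the set were ranked by phi with each member at 2000 UMIs. Ccl2, Ccl3 and Ccl4 shared their first 3 genes, Egr1, Fos and Jun, transcription factors of the immediate early response. Egr1 was found in 85.1% of cells with Ccl4 and 36.1% without it (phi 0.45), in 81.0% and 39.9% for Ccl3, and in 72.7% and 37.6% for Ccl2. Ccl7 was nearest to Mrc1, the macrophage mannose receptor, found in 22.9% of cells with Ccl7 and 5.38% without it, and then to the scavenger receptor Msr1 and the cholesterol hydroxylase gene Ch25h. Ccl12 was nearest to Ier3, an immediate early gene, found in 16.7% of cells with Ccl12 and 6.02% without it.

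The other members had different neighbours. Ccl5 was nearest to Ly6c2, an antigen of inflammatory monocytes and memory T cells, found in 26.3% of cells with Ccl5 and 5.68% without it, and to S100a6 and Dennd4a. Ccr2 was nearest to the MHC class II genes H2-Ab1 (70.4% and 42.3%), H2-Eb1 and H2-Aa. Cxcl16 was nearest to Cd14, the lipopolysaccharide co-receptor, found in 23.0% and 11%, and then to Rnf213 and Peli1. Cxcl10 was nearest to Tmpo, Cbx5 and St3gal6, with phi values of 0.15 to 0.17.

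Gene lists were then summed per cell. Cells with Ccl4 held a mean of 23.5 UMIs of the immediate early and dissociation list per 2000 (SD 12.6) and cells without it 10.0 (SD 12.4). For Ccl3 the means were 22.2 and 11.1, and for Ccl2 19.7 and 10.6. Among C1q cells of 10000 UMIs or more the ratio with over without was 1.32 for Ccl4, 1.26 for Ccl3 and 1.11 for Ccl2, against 2.34, 2.0 and 1.86 over all thinned cells. Genes of this list are known to be induced while tissue is dissociated, and their part in the chemokine levels was not tested.

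Inflammatory genes were counted more in cells with Ccl3 or Ccl4, which were also deeper before thinning. Median depth was 21066 UMIs with Ccl4 and 9000 without it, and 17860 and 11033 for Ccl3. The part of depth in the values of this list was not tested. The NF-kB and cytokine list had a mean of 2.73 UMIs with Ccl4 and 1.07 without it, and 2.62 and 1.18 with and without Ccl3. Of its 11 genes, 6 were found at least 2 times as often with Ccl4, among them Tnf (19.9% and 5.10%), Il1a (15.2% and 3.98%) and Il1b (26.1% and 9.24%), 3 proinflammatory cytokines. With Ccl3 this held for 4 of 11 genes, with Ccl2 for 5 and with Cxcl16 for 0. In the background, 6.85% of all genes were found at least 2 times as often with Ccl4, 6.35% with Ccl3, 6.33% with Ccl2 and 3.65% with Cxcl16.

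Interferon response genes were higher in cells with Cxcl10, with a mean of 10.5 UMIs (SD 10.3) and 6.82 (SD 4.19) without it. Of 12 genes, Ifit1 (21.1% and 8.57%) and Ifit2 (26.3% and 10.3%), which restrict viral RNA translation, were found at least 2 times as often, beside 8.17% of all genes with Cxcl10. The NF-kB list was also higher with Cxcl10 (ratio 1.74, 3 of 11 genes), as were the immediate early list (1.54) and the cell cycle list (1.36), against 1.54 for the interferon list. The ratio for the interferon list was between 0.95 and 1.17 for the other 8 genes. Cells with Ccr2 held 25.1 MHC class II UMIs (SD 27.7) against 12.1 (SD 20.7), and cells with Ccl5 22.0 against 13. In cells with Ccl2, Ccl7 or Ccl12 the MHC class II mean was lower, with ratios of 0.59, 0.45 and 0.60.

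Disease-associated genes such as Spp1, Gpnmb and Lpl, which mark reactive microglia around dying cells, went the other way for some members. The mean was 5.03 UMIs with Ccl12 and 10.3 without it, 6.33 and 11.2 for Cxcl16, 4.91 and 8.50 for Ccr2, and 4.08 and 8.41 for Cxcl10. For Ccl3 it was 10.2 and 7.24. Macrophage genes had a mean of 10.4 UMIs with Ccl7 and 6.61 without it. The spread between cells was wide, with SDs of 8.26 and 20.7 UMIs around the disease-associated means for Ccl12.

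**Figure D5:**
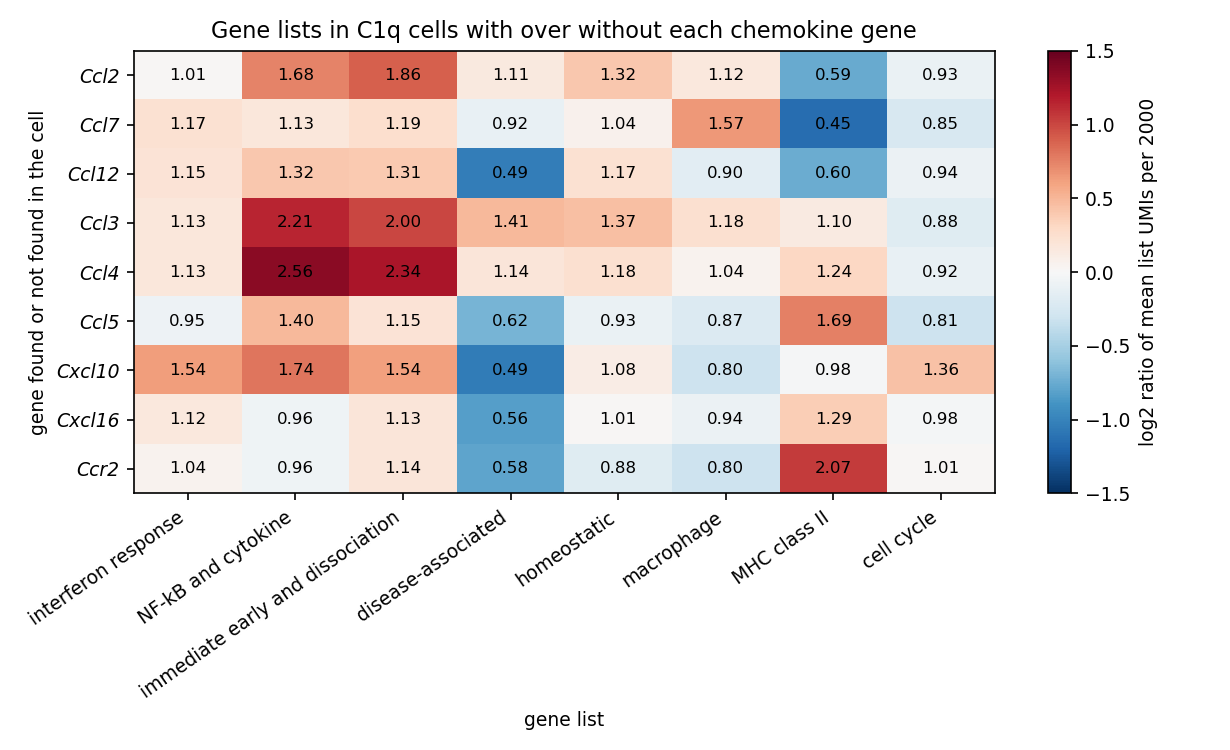
Ratio of the mean UMIs of each gene list per 2000 in NaIO3 C1q cells with over cells without each chemokine gene (printed value, colour as log2). The immediate early and NF-kB lists are highest with Ccl3 and Ccl4 (2.0 to 2.56), the MHC class II list with Ccr2 (2.07) and the macrophage list with Ccl7 (1.57).

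Other chemokine genes were listed for comparison. Of 27 other ligands, 26 were in the files and 10 reached 50 CPM in a NaIO3 class of at least 50 cells, 4 of them highest in C1q cells. These were Cxcl2, a neutrophil attractant (154 CPM), Pf4, platelet factor 4 (216 CPM), Ccl8 (98.1 CPM) and Cxcl14 (52.9 CPM). Xcl1, which attracts Xcr1-bearing dendritic cells, was highest in the T and NK class (1591 CPM), as was Ccl1 (125 CPM). Cxcl12, the ligand of Cxcr4, was highest in endothelial cells, at 1013 CPM and 65.3% of its UMIs. Ccl6 (143 CPM) and Ccl17 (84.6 CPM) were highest in MHC class II-high C1q-low cells, and Ccl27a (54.7 CPM) in bipolar cells.

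Among other receptors, Cx3cr1, the fractalkine receptor of microglia, was highest in C1q cells. It stood at 1018 CPM in those of NaIO3 and 2577 CPM in those of PBS, a ratio of 0.395 (0.333 to 0.472). Ccr1 (202 CPM), Ccrl2 (61.4 CPM) and Xcr1 (78.3 CPM) were highest in the MHC class II-high class, Ccr7 (56.5 CPM) in the T and NK class and Ackr1 in bipolar cells. For Ccr1 the interval of 180 to 227 CPM in the MHC class II-high class included the C1q cell level of 197 CPM. That class held 6.3% of the Ccr1 UMIs. Of the other ligands with a level in C1q cells, 4 of 7 had at least 2 times the PBS level after NaIO3 and 1 had 0.5 times or less, beside the 11.8% and 29.1% of all genes. Of those 4, Cxcl2, Xcl1 and Pf4 had 0 PBS UMIs, and Cxcl14 had 1, with a ratio of 2.71 (0.485 to 107).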

How the data were processed

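Raw UMI counts per gene and cell barcode were deposited by the authors as 1 matrix per library, made with Cell Ranger 3.0.2 per the file headers, on the mm10 build per the submitters' processing notes. From these counts, cells with at least 500 UMIs, 300 genes and at most 15% mitochondrial UMIs were kept. Scrublet in scanpy 1.11.5 (expected rate 6%) removed 180 NaIO3 barcodes and marked 0 PBS barcodes, so it did not work for PBS. Cells were put into 13 classes by the share of UMIs of marker genes (C1q 0.3%, MHC class II 1%, T and NK 0.2%, Müller 0.5%, endothelial 0.3%, rod 3%). The pericyte gate holds Vtn, which PBS rods carried, and the monocyte gate caught 7 cells, so neither class was interpreted. Cells over more than 1 gate (132 in NaIO3) and over none (1287) are outside the classes.

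UMIs were summed per class and library and divided by the class total. Intervals are exact Poisson, Clopper-Pearson or conditional binomial intervals at 95%, and cover counting error only. Thinning drew 2000 UMIs per cell at random without replacement. Phi is the correlation of detection (a UMI present or not) over cells. Neighbouring genes are the 3 with the highest phi among genes in at least 5% of cells, without mitochondrial, ribosomal and unnamed genes. Other chemokine genes are named at 50 CPM in a class of at least 50 cells. A few genes that these rules select are not reported here. The members, lists and rules were chosen with earlier results of these data known. The computations were tested on simulated data in Python 3.11.15, and edgeR 4.0.16 gave the TMM alternative. Other filters, gates, scalings and depths were tried. In C1q cells 1 UMI is 19.5 CPM in PBS, which limits every comparison with that library.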

Additional observations from a re-analysis of the deposited data

How the results depend on the processing

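Over 17 alternatives and 48 results, no called value changed direction, with the sizes that count as called set after the values were seen. In C1q cells, 7 of the 9 genes were higher by 2 times or more, and this was 4 as a mean of CPM per cell and 5 to 8 under the other alternatives (5 in cells under 10000 UMIs). The number of pairs found together was 5, and it was 3 with the C1q gate at 0.6% of UMIs, 10 at 1000 UMIs per cell, 1 at 5000 UMIs and 2 in cells of at least 10000 UMIs, an alternative chosen after seeing the data, as were cells under 10000 UMIs, a pericyte gate without Vtn and leaving out the richest cells. The cause was not tested, and phi for Ccl3 with Ccl4 lay between 0.39 and 0.49 in all settings. The log2 ratio of Ccl3 was 0.25 and turned to -0.17 with at most 5% mitochondrial UMIs and as a mean over cells, and to -0.83 in cells under 10000 UMIs. Phi of Ccl5 with Cxcl10 was -0.01 and lay between -0.03 and 0.15 over the alternatives, highest in cells of at least 10000 UMIs. With the gates of the other classes doubled, 27 cells remained in the T and NK class, under the minimum of 50 cells for comparing classes. That class was therefore left out there, and 8 of 9 genes were highest in C1q cells among the classes compared. The MHC class II-high level of Ccl5 was then 139 CPM. TMM scaling moved the share of genes at least 2 times higher from 11.8% to 25.4%. No paired analysis was possible because each group is 1 pooled library. The 15 PBS C1q cells and 51217 UMIs limit every ratio.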

Other observations

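The gated classes did not hold all chemokine transcripts. The 1287 ungated NaIO3 cells held 358 Ccl2 UMIs in 71 cells, and 69.0% of them lay in 5 cells, 3 of which had Müller genes over 0.2% of UMIs. They also held 884 Cxcl16 UMIs in 246 cells, with 7.35% in the 5 richest. The 132 cells over more than 1 gate held 744 Cxcl10 UMIs in 26 cells, 88.7% of them in 5 cells.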
